A study of Mus musculus with 2 samples.

Results

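*F2rl2*, *Ckb*, *Mmp9*, *Asb2*, *Dtx1*, *1810011H11Rik*, *Rcbtb2* and *Chst2* are 8 of the 28692 genes counted in CD45+ liver leukocytes of the mouse. They had been picked as genes that mark NKT-like cells of vehicle-treated mice, so the contrast between both libraries in that cell class had already been seen when they were chosen. That contrast is given here as a description only. The comparison of interest is whether the same difference is seen in B cells, NK cells and other T cells of the same libraries.

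One library came from mice whose drinking water held metronidazole and ampicillin, both at 1 mg/mL, and neomycin and vancomycin, both at 0.5 mg/mL, for at least 1 week per the study's methods, and the other from mice given vehicle. Both were made from FACS-sorted CD45+ hepatic leukocytes of 6-week-old female mice on the droplet-based Chromium platform (3′ chemistry, version 2). No source used here gives the number of mice behind a library. Captured transcripts are tagged with unique molecular identifiers (UMIs), and a gene's UMIs were summed over the cells of a class and divided by all UMIs of that class to give CPM, a count scaled to a fixed total of UMIs. With 1 library per condition there was no test between conditions, and the treatment cannot be told apart from a difference between animals, captures or libraries. Ranges in parentheses after a value are 95% intervals that cover counting error only.

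Natural killer T (NKT) cells are T cells whose receptor recognizes lipids presented by CD1d, and in the invariant type the receptor α chain uses the *Trav11* segment. They are abundant in mouse liver, where the chemokine receptor CXCR6 helps to hold them in the sinusoids. Several of the 8 genes act in signaling or in protein turnover. Dtx1 (Deltex1) is a ubiquitin ligase, Asb2 is the substrate-binding subunit of a cullin ubiquitin ligase, and the genes of both are known targets of Notch, a receptor that is cleaved on contact with its ligand and then acts in the nucleus with the DNA-binding protein RBPJ. F2rl2 is protease-activated receptor 3, which helps thrombin to act on platelets in the mouse. Mmp9 is a secreted protease of the extracellular matrix, Ckb is the brain-type creatine kinase that buffers ATP, and Chst2 is a sulfotransferase that adds sulfate to sugar chains. Rcbtb2 is a protein with RCC1 repeats and a BTB domain.

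On GRCm38 all 8 are protein-coding genes on 6 chromosomes. *Asb2* (ENSMUSG00000021200) lies at chr12:103321142-103356001 on the minus strand and *Ckb* (ENSMUSG00000001270) at chr12:111669361-111672338 on the same strand. *1810011H11Rik* (ENSMUSG00000041707), named *Tmem273* in the annotation, lies at chr14:32785963-32817984 on the plus strand. *Rcbtb2* (ENSMUSG00000022106) lies at chr14:73123037-73207843 on the plus strand of the same chromosome. The other 4 lie apart from each other. *F2rl2* (ENSMUSG00000021675) is at chr13:95696853-95702739 on the plus strand, and *Mmp9* (ENSMUSG00000017737) is at chr2:164940780-164955850 on the plus strand. *Dtx1* (ENSMUSG00000029603) is at chr5:120680202-120711927 on the minus strand, and *Chst2* (ENSMUSG00000033350) is at chr9:95399292-95406722 on the minus strand.

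The promoters of *Asb2* and *F2rl2*, the members with the lowest ratios of antibiotic over vehicle CPM in NKT-like cells, and of *Ckb*, the member with the highest CPM, are shown here, 5′ to 3′ on the gene's strand, from RefSeq sequences on GRCm38.p6. Each run ends at the last base before the annotated gene, and for *F2rl2* it holds 183 of the 250 bases searched. Capitals mark every match to a motif searched.
Asb2 (chr12:103356002-103356251, minus): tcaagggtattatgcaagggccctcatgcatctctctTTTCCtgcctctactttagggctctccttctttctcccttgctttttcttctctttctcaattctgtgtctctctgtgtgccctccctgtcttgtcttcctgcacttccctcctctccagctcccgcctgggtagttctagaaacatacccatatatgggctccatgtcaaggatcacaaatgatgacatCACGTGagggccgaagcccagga
F2rl2 (chr13:95696670-95696852, plus): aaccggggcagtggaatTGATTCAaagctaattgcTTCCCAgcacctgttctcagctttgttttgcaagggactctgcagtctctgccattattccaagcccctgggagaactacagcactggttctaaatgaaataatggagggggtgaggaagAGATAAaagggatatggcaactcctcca
Ckb (chr12:111672339-111672588, minus): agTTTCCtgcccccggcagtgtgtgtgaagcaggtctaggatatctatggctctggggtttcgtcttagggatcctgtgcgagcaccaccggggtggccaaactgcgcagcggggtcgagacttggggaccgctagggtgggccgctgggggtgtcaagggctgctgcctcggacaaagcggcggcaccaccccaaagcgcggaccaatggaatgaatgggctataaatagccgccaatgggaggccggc

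A promoter was matched for 6 of the 8 genes, with *Mmp9* and *1810011H11Rik* unmatched, and the 250 bases before each start were searched on both strands. RBPJ (TGGGAA) had 1 match, in *F2rl2*, at positions −215 to −210 from the start, and 21.6% of all 32851 promoters hold that motif. Neither *Asb2* nor *Dtx1*, the Notch targets, had a match, which says only that these letters are not in this window. AP-1 (TGANTCA) matched *F2rl2* at 2 places, 1 of them in the bases shown, and is held by 6.75% of all promoters. NFAT (GGAAA) matched 3 of the 6 genes (*Asb2*, *Ckb* and *Rcbtb2*), against 55.6% of all promoters. The motif of GATA factors, AGATAA, matched *F2rl2* and *Rcbtb2*, against 9.99%. The E-box (CACGTG) and RUNX (TGTGGT) each matched *Asb2* alone, RUNX in its second promoter, against 6.02% and 14.0% of all promoters. EGR (GCGTGGG), T-box (AGGTGTGA), ETS (CCGGAAGT) and NF-kB matched none of the 6, against 4.30%, 1.12%, 2.88% and 0.356%. No motif was found in more than 3 of the genes.

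A barcode with at least 1500 UMIs and under 10% mitochondrial UMIs was taken as a cell, which gave 7050 cells with a median of 3331 UMIs in the antibiotic library and 9002 cells with a median of 3515 UMIs in the vehicle library. NKT-like cells (at least 1 *Trac* and 1 *Cxcr6* UMI, no *Cd79a* UMI) numbered 3743 in the antibiotic library and 2800 in the vehicle library, or 53.1% and 31.1% of cells, with median depths of 3601 and 4159 UMIs. B cells (at least 2 *Cd79a* UMIs, no *Cd3e*) numbered 1340 in the antibiotic and 3016 in the vehicle library. NK cells (at least 1 *Ncr1* UMI, no *Cd3d*, *Cd3e* or *Cd3g*) numbered 109 in the antibiotic and 303 in the vehicle library. Other T cells (at least 2 *Trac* UMIs, no *Cxcr6*) numbered 660 in the antibiotic and 822 in the vehicle library. Both libraries called 93 barcodes in common, against 86.1 that random draws from the kit's list would share. The gate asks for no marker of invariant NKT cells, so other T cells with *Cxcr6* can pass it. At these depths and with 3′ chemistry, a cell without a UMI of a gene may still express it. The shares that follow therefore do not give the part of invariant NKT cells. A UMI of *Trav11* was seen in 12.9% of antibiotic and 8.93% of vehicle NKT-like cells, and one of *Zbtb16*, which encodes the NKT lineage factor PLZF, in 16.1% of antibiotic and 20.1% of vehicle NKT-like cells.

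In NKT-like cells all 8 genes had a lower CPM in the antibiotic than in the vehicle library, with ratios between 0.483 and 0.959. For 7 of the 8 the interval of the ratio lay below 1, which was also so for 22.7% of the 11919 genes tested (at least 10 UMIs over both libraries). Only *Asb2* was at or under 1/2 of its vehicle level, against 6.38% of all genes. None had an interval above 1 or was at or over 2 times its vehicle level, against 15.1% and 2.87% of all genes. Since this contrast chose the genes, nothing is read from these counts. The 8 genes summed to 790 CPM in antibiotic and 1148 CPM in vehicle NKT-like cells, a ratio of 0.688 (0.672 to 0.705). Their median log2 ratio was −0.79, beside −0.02 over all genes tested. The name of the set does not hold for *Rcbtb2* at this depth, since the interval of its ratio took in 1.

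**Figure D1:**
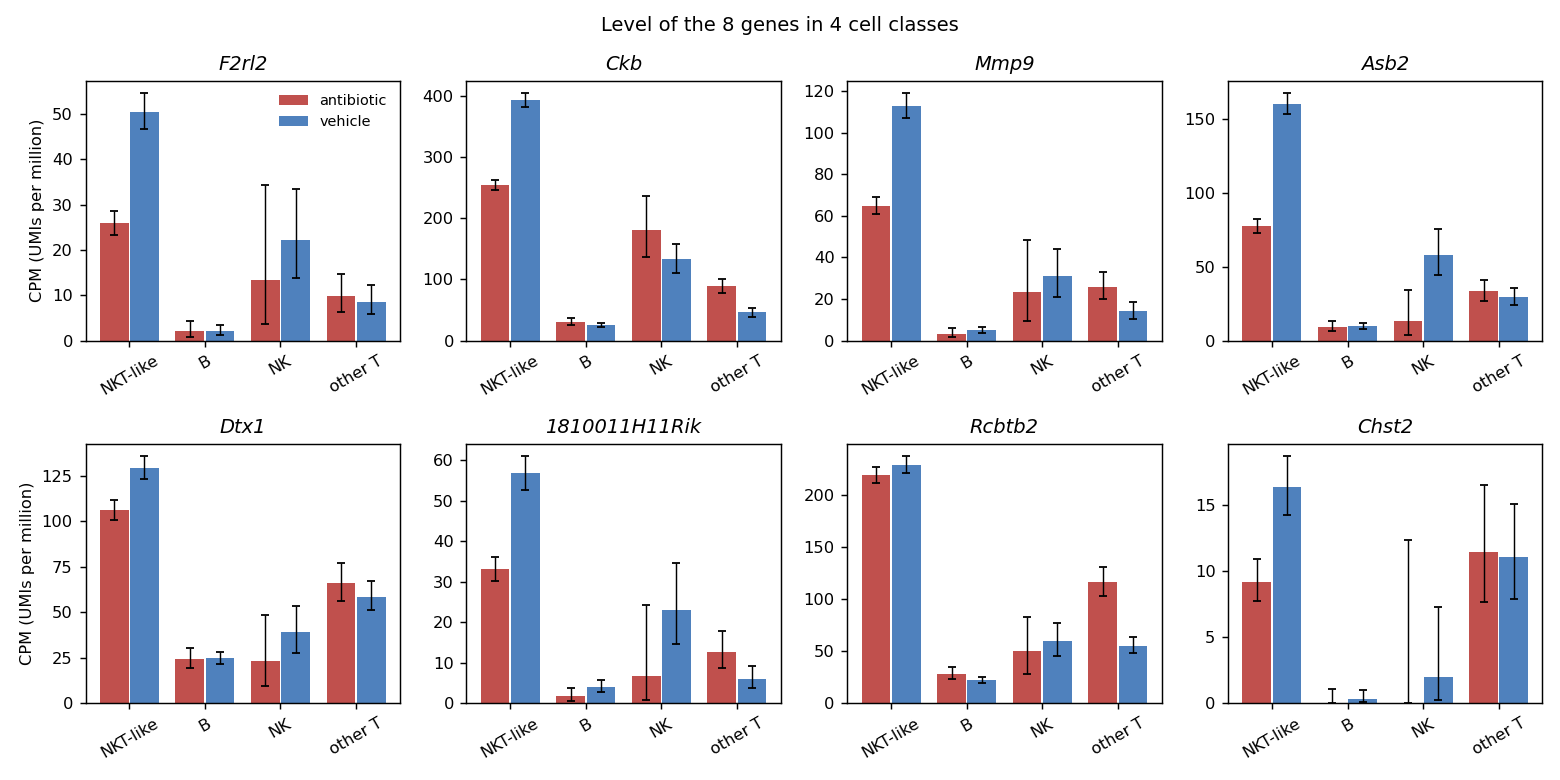
CPM of each of the 8 genes (vertical axes, each starting at 0 with its own scale) in NKT-like, B, NK and other T cells, with antibiotic bars in red to the left of vehicle bars in blue. Error bars are exact 95% Poisson intervals of 1 library each. In NKT-like cells the antibiotic bar is the lower for every gene, while in other T cells the antibiotic bars of *Ckb* (88.7 CPM) and *Rcbtb2* (116 CPM) stand above the vehicle bars.

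The Notch targets differed in size. *Asb2* had 1137 UMIs and 77.5 CPM in antibiotic NKT-like cells, against 2068 UMIs and 160 CPM in vehicle NKT-like cells, a ratio of 0.483 (0.449 to 0.520). *Dtx1* had 106 CPM in antibiotic and 130 CPM in vehicle NKT-like cells, a ratio of 0.819 (0.764 to 0.878). The intervals of the 2 ratios did not overlap. By the order of log2 ratios from the lowest, *Asb2* stood at place 699 and *Dtx1* at place 2884 of 11919 genes.

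Among the genes of proteolysis, *F2rl2* had 25.9 CPM in antibiotic and 50.6 CPM in vehicle NKT-like cells, a ratio of 0.512 (0.450 to 0.582). *Mmp9* had 64.7 CPM in antibiotic and 113 CPM in vehicle NKT-like cells, a ratio of 0.573 (0.528 to 0.622). *Mmp9* is best known from neutrophils and macrophages, and the neutrophil markers, 7 genes that include *S100a8* and *S100a9*, summed to 20.1 CPM in antibiotic and 39.7 CPM in vehicle NKT-like cells. *Elane* was at 0 in vehicle cells and no other gene of that list was at 0. Monocyte and macrophage markers, 7 genes with none at 0, summed to 270 CPM in antibiotic and 349 CPM in vehicle NKT-like cells. Most of both sums was *Ccr2*, a chemokine receptor gene that T cells also express, and the other 6 genes summed to 55.8 CPM in antibiotic and 126 CPM in vehicle cells, with *Lyz2* at 32.2 CPM in antibiotic and 104.5 CPM in vehicle cells. Leaving out cells with a UMI of *Lyz2*, *S100a8*, *S100a9* or 3 genes of other lineages was among 15 alternative settings. Over these the log2 ratio of *Mmp9* in NKT-like cells ran between −0.88 and −0.66. The part of neutrophil and macrophage RNA in the *Mmp9* values was not tested.

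Of the enzymes, *Ckb* was the most abundant member, with 254.8 CPM in antibiotic and 393 CPM in vehicle NKT-like cells and a ratio of 0.648 (0.621 to 0.676). *Chst2* was the least abundant, with 135 UMIs and 9.20 CPM in antibiotic and 211 UMIs and 16.4 CPM in vehicle NKT-like cells, a ratio of 0.562 (0.450 to 0.701). The remaining pair was unlike. *1810011H11Rik* had 33.1 CPM in antibiotic and 56.8 CPM in vehicle NKT-like cells, a ratio of 0.584 (0.519 to 0.655). *Rcbtb2* had 219 CPM in antibiotic and 229 CPM in vehicle NKT-like cells, a ratio of 0.959 (0.912 to 1.01), and stood at place 5425 of 11919, near the middle of all genes.

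The ratios fell into an order in which several neighbors could not be told apart. *Asb2*, *F2rl2* and *Chst2* had the lowest values, and the intervals of *F2rl2*, *Mmp9*, *Chst2* and *1810011H11Rik* overlapped one another. *Dtx1* and *Rcbtb2* stood above the other 6 and their intervals did not overlap each other. Ribosomal protein genes took 36.9% of UMIs in antibiotic and 30.7% in vehicle NKT-like cells, and with ribosomal and mitochondrial genes taken out of the totals every log2 ratio in this class shifted by 0.15, the median over all genes to 0.12. On that scale *Rcbtb2* had a log2 ratio of 0.09, the other 7 stayed below 0, and none was at or under 1/2.

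The share of cells with a UMI followed the CPM. Unthinned, *Asb2* was seen in 23.5% of antibiotic and 45.3% of vehicle NKT-like cells, and *Ckb* in 56.6% of antibiotic and 69.9% of vehicle cells. With every cell thinned to 1500 UMIs, which left no cell out, *Asb2* was seen in 10.7% (9.69 to 11.7) of antibiotic and 20.4% of vehicle cells, and *Ckb* in 31.6% of antibiotic and 40.6% of vehicle cells. The other shares after thinning ran between 1.15% for *Chst2* and 25.1% for *Rcbtb2* in antibiotic cells, and between 1.71% and 27.4%, for the same genes, in vehicle cells. B cells, at median depths of 2149 UMIs in the antibiotic and 2527 UMIs in the vehicle library, gave the background. There, after thinning, *Asb2* was seen in 1.27% of antibiotic and 0.928% of vehicle cells, and *Ckb* in 3.43% of antibiotic and 3.08% of vehicle cells. For each of the 8 genes the share was higher in NKT-like than in B cells of the same library.

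In B cells, on few UMIs, the ratio was below 1 for 5 of the 7 genes tested, against 41.3% of all genes, that of *Dtx1* only just, and every interval took in 1. None of the 7 genes tested had an interval below 1, against 8.38% of 11019 genes, and none had one above 1, against 13.3%. None was at or over 2 times its vehicle level, against 3.97%. One gene, *1810011H11Rik*, was at or under 1/2, against 4.1% of all genes, on 6 UMIs in the antibiotic and 36 UMIs in the vehicle library, with a ratio of 0.432 (0.149 to 1.03). *Ckb* had 30.2 CPM in antibiotic and 25.9 CPM in vehicle B cells, a ratio of 1.17 (0.916 to 1.48), and this interval lay above that of *Ckb* in NKT-like cells. *Dtx1*, which is also expressed by B cells, had 24.6 CPM in both, a ratio of 1.00 (0.766 to 1.29). *Asb2* had 9.48 CPM in antibiotic and 9.84 CPM in vehicle B cells, a ratio of 0.964 (0.621 to 1.46), also with an interval above that in NKT-like cells. *Mmp9*, on 11 UMIs in the antibiotic and 43 UMIs in the vehicle library, had a ratio of 0.662 (0.308 to 1.31), with an interval that took in that of *Mmp9* in NKT-like cells. *Chst2* had 0 UMIs in antibiotic B cells, which allows up to 0.889 CPM by a floor of 3 counts, and 3 UMIs in vehicle B cells. The summed ratio was 1.06 (0.934 to 1.21), and the median log2 ratio of the 7 genes was −0.01, beside 0.09 over all genes.

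**Figure D2:**
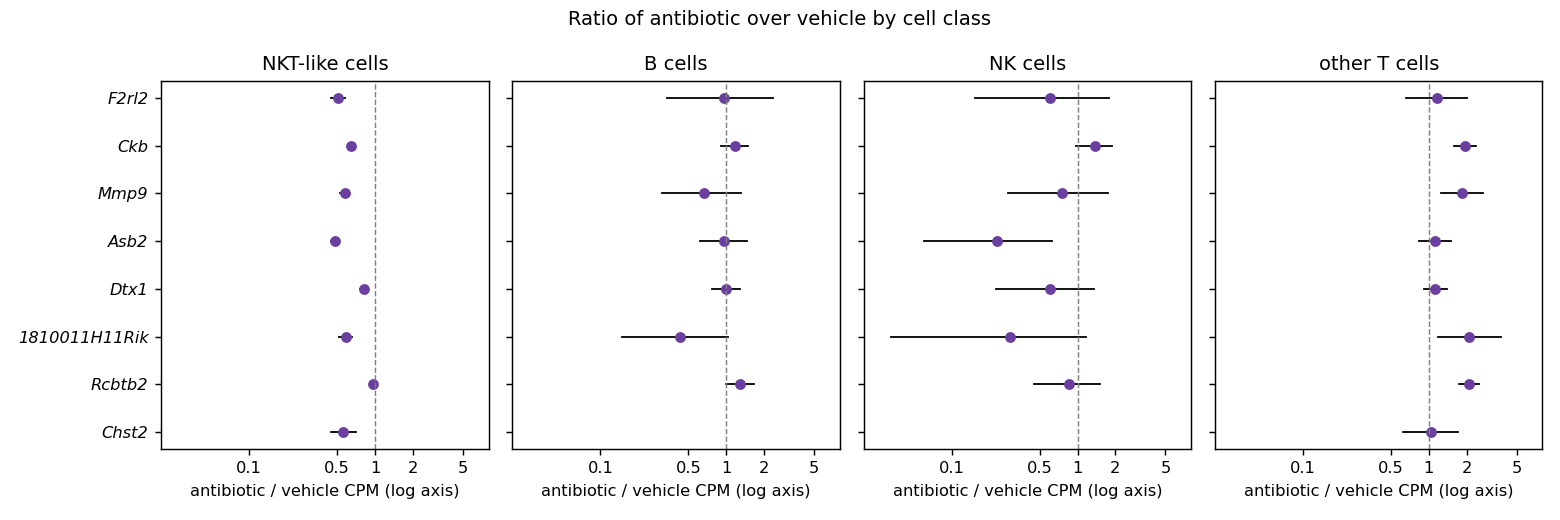
Ratio of antibiotic over vehicle CPM (horizontal log axes) for the 8 genes in 4 cell classes, 1 panel each, with points for the ratio and lines for the exact conditional 95% interval, and a dashed line at 1. *Chst2* has no point in B and NK cells, where the antibiotic library held 0 UMIs. All points lie left of 1 in NKT-like cells and all lie right of it in other T cells.

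NK cells were few, and the intervals were wide. *Asb2* had 4 UMIs and 13.4 CPM in antibiotic and 58 UMIs and 58.3 CPM in vehicle NK cells, a ratio of 0.230 (0.0607 to 0.622). It was the only one of 7 genes tested with an interval below 1, against 4.11% of 7819 genes. The ratio was below 1 for 6 of the 7, against 46.7% of all genes, and *Asb2* and *1810011H11Rik* were at or under 1/2, against 7.95%. No member had an interval above 1 or was at or over 2 times its vehicle level, against 5.49% and 6.68%. *Ckb* had 181 CPM in antibiotic and 133 CPM in vehicle NK cells, a ratio of 1.37 (0.977 to 1.89). The summed ratio was 0.849 (0.669 to 1.07), but 0.0144 with free RNA subtracted by *Cd79a*, and the median log2 ratio was −0.58, beside 0.08 over all genes. *Cd79a* was seen in 15.6% of antibiotic and 27.7% of vehicle NK cells, and 10 antibiotic and 43 vehicle cells passed the B cell gate too. Leaving out cells of more than 1 class was among 14 alternatives for the summed ratio. Of these, 13 lay inside the interval given, the highest at 0.939, and the exception was the subtraction by *Cd79a*. The part of B cell transcripts in these values was not tested. In NK cells with no *Trac* UMI, a choice made after seeing the data, *Asb2* had a ratio of 0.259 (0.0679 to 0.704), and *Dtx1* had one of 0.357 (0.0924 to 0.993).

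In other T cells taken whole, all 8 had a ratio above 1, and 46.7% of all genes had one below 1, but for 4 of the 8 genes the direction changed in 1 or both parts of the class when it was split by its makeup, as given with that split. For 4 of them (*Ckb*, *Mmp9*, *1810011H11Rik* and *Rcbtb2*) the interval lay above 1, against 10.6% of 10222 genes, and for 2 (*1810011H11Rik* and *Rcbtb2*) the antibiotic CPM was at or over 2 times that of vehicle, against 4.28%. No member was at or under 1/2, against 5.54%, and none had an interval below 1, against 10.3%. *Rcbtb2* had 116 CPM in antibiotic and 55.3 CPM in vehicle other T cells, a ratio of 2.10 (1.75 to 2.52). *Ckb* had 88.7 CPM in antibiotic and 45.9 CPM in vehicle other T cells, a ratio of 1.93 (1.57 to 2.38).

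*Mmp9* had 25.7 CPM in antibiotic and 14.1 CPM in vehicle other T cells, a ratio of 1.83 (1.25 to 2.69). *1810011H11Rik* had 32 UMIs and 12.7 CPM in antibiotic and 22 UMIs and 6.09 CPM in vehicle other T cells, a ratio of 2.08 (1.17 to 3.76). The ratios of *F2rl2*, *Asb2*, *Dtx1* and *Chst2* lay between 1.04 and 1.16, each with an interval that took in 1. Over the 8 genes the sum was 364 CPM in antibiotic and 229 CPM in vehicle other T cells, a ratio of 1.59 (1.44 to 1.75), and the median log2 ratio was 0.54, beside 0.04 over all genes.

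The makeup of this class differed between the libraries. *Klrb1c*, which encodes NK1.1, had 257 CPM in antibiotic and 74.7 CPM in vehicle other T cells, and *Trav11* had 21.0 CPM in antibiotic and 6.09 CPM in vehicle other T cells. A UMI of *Zbtb16*, *Klrb1c* or *Trav11* was seen in 42.3% of antibiotic and 17.4% of vehicle other T cells. The class was split by such a UMI after the data had been seen. In cells with none of the 3 genes the summed ratio was 1.14 (0.986 to 1.32). *Ckb* had 1.33 (0.938 to 1.86) there, *Mmp9* 1.00 (0.438 to 2.15) and *1810011H11Rik* 1.75 (0.540 to 5.52), while *Asb2*, at 0.739 (0.397 to 1.31), and *Dtx1*, at 0.807 (0.601 to 1.07), were below 1. *Rcbtb2*, at 1.54 (1.17 to 2.01), was the only member with an interval above 1, against 6.98% of all genes. In cells with a UMI of any of the 3 the summed ratio was 1.24 (1.08 to 1.42), and 3 members had an interval above 1, against 5.65% of all genes. These were *Ckb*, at 1.37 (1.04 to 1.81), *Dtx1*, at 1.52 (1.05 to 2.25), and *Rcbtb2*, at 1.74 (1.32 to 2.32). *Mmp9* had 1.19 (0.743 to 1.93) there and *1810011H11Rik* 1.14 (0.569 to 2.37). *F2rl2*, at 0.637 (0.306 to 1.33), *Asb2*, at 0.70 (0.488 to 1.01), and *Chst2*, at 0.467 (0.194 to 1.09), were below 1. *Asb2* was thus below 1 in both parts of the class and above 1 in the whole. B cell markers summed to 438 CPM in antibiotic and 913 CPM in vehicle other T cells, and their part in the ratios was not tested.

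Of the cells outside all gates, 1175 in the antibiotic and 1878 in the vehicle library, the 8 genes summed to 559 CPM in antibiotic and 719 CPM in vehicle cells, a ratio of 0.777 (0.741 to 0.815). These cells had higher sums than B, NK or other T cells of the same library. Their ratio was 0.439 (0.377 to 0.510) for *Asb2*, 0.492 (0.366 to 0.652) for *F2rl2* and 0.615 (0.517 to 0.729) for *Mmp9*. It was 0.649 (0.517 to 0.809) for *1810011H11Rik* and 0.819 (0.754 to 0.888) for *Ckb*. The intervals of *Dtx1*, *Rcbtb2* and *Chst2* took in 1. The share of all genes with such intervals was not computed for these cells. Plasmacytoid dendritic-like cells (29 antibiotic and 160 vehicle cells) had 22 and 113 UMIs of the 8 genes together, a ratio of 1.10 (0.660 to 1.74). Myeloid cells (19 antibiotic and 105 vehicle cells) had 23 and 190 UMIs, a ratio of 0.642 (0.398 to 0.993).

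Within a library the genes were higher in NKT-like cells than in most other classes. Against vehicle B cells, vehicle NKT-like cells had 23.2-fold more *F2rl2* (14.8 to 38.9), 23.0-fold more *Mmp9* and 16.3-fold more *Asb2*, but 5.26-fold more *Dtx1*. Against antibiotic B cells, antibiotic NKT-like cells had 12.5-fold more *F2rl2* (6.0 to 31.3), 19.9-fold more *Mmp9*, 8.17-fold more *Asb2* and 4.31-fold more *Dtx1*. *Chst2*, at 0 UMIs in antibiotic B cells, was at least 10.3-fold higher in antibiotic NKT-like cells against a floor of 3 counts. Other T cells stood nearer than B cells. Antibiotic NKT-like cells had between 1.60-fold (*Dtx1*) and 2.87-fold (*Ckb*) the CPM of antibiotic other T cells for 7 genes, while *Chst2* had a ratio of 0.801 (0.533 to 1.24). Vehicle NKT-like cells had between 1.48-fold (*Chst2*) and 9.33-fold (*1810011H11Rik*) the CPM of vehicle other T cells for the 8 genes. Against vehicle NK cells they had between 2.29-fold (*F2rl2*) and 8.14-fold (*Chst2*). In the vehicle library NK cells were thus nearer than other T cells for all genes but *Dtx1* and *Chst2*. Antibiotic NKT-like cells had 1.41-fold (1.07 to 1.87) the *Ckb* of antibiotic NK cells and 1.93-fold (0.747 to 7.12) their *F2rl2*.

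Transcripts outside cells bear on these levels. In barcodes of 1 to 50 UMIs, which hold mostly free RNA, *Ckb* had 425 CPM in each library, a ratio of 1.00 (0.929 to 1.08), while in NKT-like cells its ratio was 0.648. *Asb2* had 62.9 CPM in antibiotic and 88.4 CPM in vehicle barcodes of this size, a ratio of 0.711 (0.592 to 0.852). *Rcbtb2* had 165 CPM in antibiotic and 133 CPM in vehicle barcodes, a ratio of 1.24 (1.09 to 1.40), but one of 0.881 (0.688 to 1.12) in barcodes of 50 to 500 UMIs. By *Cd79b*, free RNA made up 4.21% of UMIs in antibiotic and 4.59% in vehicle NKT-like cells, and with that share subtracted the summed ratio was 0.678.

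Subsets of the NKT-like class were defined by a UMI of a single gene. They hold the contrast that chose the genes, so the counts in them are a description. Among cells with a *Trav11* UMI, 482 in the antibiotic and 250 in the vehicle library, all 8 ratios were below 1 and 7 intervals lay below 1, as for 10.5% of all genes. *Asb2* had a ratio of 0.496 (0.407 to 0.603) there, *1810011H11Rik* 0.419 (0.294 to 0.593) and *Rcbtb2* 0.817 (0.704 to 0.949), and the exception was *Chst2*, at 0.561 (0.277 to 1.13). Cells with a *Klrb1c* UMI made up 82.0% of antibiotic and 62.7% of vehicle NKT-like cells, and all 8 intervals lay below 1 in them, as for 19.9% of all genes, with *Rcbtb2* at 0.887 (0.837 to 0.940). Among cells without one, the intervals of *Dtx1*, at 0.942 (0.813 to 1.09), and *Rcbtb2*, at 0.986 (0.880 to 1.10), took in 1 and those of the other 6 lay below it, as for 14.4% of all genes. *Asb2* had a ratio of 0.494 (0.415 to 0.586) in cells with a *Cd4* UMI and of 0.485 (0.447 to 0.526) in cells without. The few cells with a *Cd8a* UMI, 90 in the antibiotic and 208 in the vehicle library, had fewer intervals below 1. There 3 intervals (*F2rl2*, *Mmp9* and *Asb2*) lay below 1, as for 5.08% of all genes, and 5 took in 1. *Rcbtb2*, at 1.41 (0.967 to 2.04), and *Dtx1*, at 1.09 (0.703 to 1.65), had ratios above 1, and *Ckb* had 0.806 (0.543 to 1.17) and *1810011H11Rik* 0.869 (0.361 to 1.89).

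**Figure D3:**
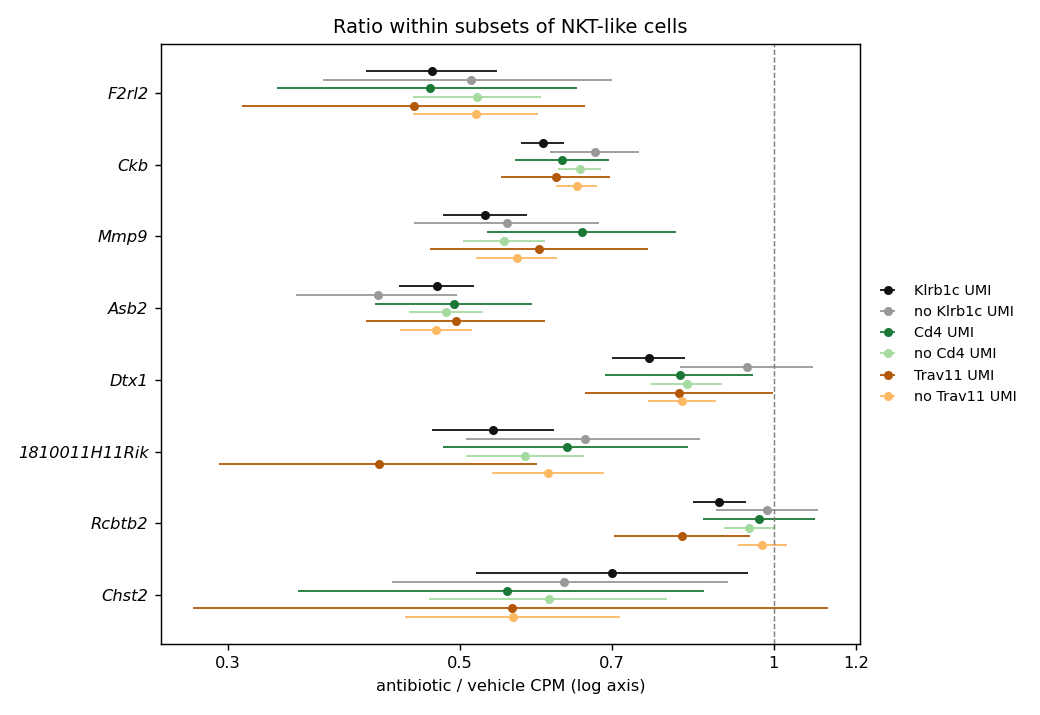
Ratio of antibiotic over vehicle CPM (horizontal log axis) for the 8 genes in NKT-like cells with and without a UMI of *Klrb1c*, *Cd4* or *Trav11*, with points for the ratio, lines for the exact conditional 95% interval and a dashed line at 1. Every point lies left of 1, and the points of *Rcbtb2* and *Dtx1* lie nearest to it.

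The same subsets differed in level within a library. Cells with a *Klrb1c* UMI had more *Mmp9* than cells without, 1.42-fold (1.18 to 1.73) in antibiotic and 1.49-fold (1.33 to 1.68) in vehicle NKT-like cells. *Chst2* ran the other way, at 0.499 (0.342 to 0.739) in antibiotic and 0.449 (0.338 to 0.595) in vehicle NKT-like cells. *Chst2* was also higher in cells with a *Cd4* UMI, 1.65-fold (1.06 to 2.49) in antibiotic and 1.81-fold (1.34 to 2.41) in vehicle cells. Cells with a *Cd8a* UMI, which were 2.40% of antibiotic and 7.43% of vehicle NKT-like cells, had less *Ckb* than cells without, at 0.364 (0.256 to 0.503) in antibiotic and 0.280 (0.233 to 0.335) in vehicle. *Rcbtb2* was lower in them as well, at 0.529 (0.387 to 0.708) in antibiotic and 0.344 (0.275 to 0.426) in vehicle. In NKT-like cells with no *Cd8a* UMI the summed ratio of antibiotic over vehicle was 0.663 and all 8 intervals lay below 1, as for 22.7% of all genes, *Rcbtb2* with 0.919 (0.873 to 0.967).

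Markers of other cells also moved with the class. NK cell markers, 8 genes with none at 0, summed to 846 CPM in antibiotic and 1147 CPM in vehicle NKT-like cells. That sum hides opposite directions. *Klrb1c*, which NKT cells also express, was higher in antibiotic cells (598 CPM in antibiotic, 331 CPM in vehicle). *Gzma* was lower (90.5 CPM in antibiotic, 344 CPM in vehicle). Also lower were *Ncr1*, with a ratio of 0.302 (0.245 to 0.369), *Tyrobp*, at 0.318 (0.296 to 0.342), and *Fcer1g*, at 0.330 (0.306 to 0.355). *Klra8*, at 0.265 (0.162 to 0.418), and *Eomes*, at 0.439 (0.251 to 0.749), were lower too. The interval of *Prf1*, at 1.34 (0.993 to 1.80), took in 1. B cell markers, 7 genes with *Cd79a* at 0 by the gate, summed to 74.3 CPM in antibiotic and 189 CPM in vehicle NKT-like cells. When cells with UMIs of other lineages (*Lyz2*, *Siglech*, *S100a8*, *S100a9*, *Pf4* or *Alb*) were left out, the summed ratio of the 8 genes was 0.671. No NK or B cell marker of these lists was used for that, and the part of their RNA in the ratios was not tested.

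Per cell, few of the 8 genes were seen together. After thinning to 1500 UMIs, an NKT-like cell held a mean of 1.00 of the genes in the antibiotic and 1.38 in the vehicle library. None was seen in 33.8% of antibiotic and 24.3% of vehicle cells. At least 3 were seen in 250 of 3743 antibiotic cells, or 6.68% (5.90 to 7.53), and in 438 of 2800 vehicle cells, or 15.6% (14.3 to 17.0). The highest number in 1 cell was 5 in the antibiotic and 6 in the vehicle library. In B cells the mean was 0.119 in antibiotic and 0.117 in vehicle cells, and in other T cells it was 0.538 in antibiotic and 0.303 in vehicle cells.

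**Figure D4:**
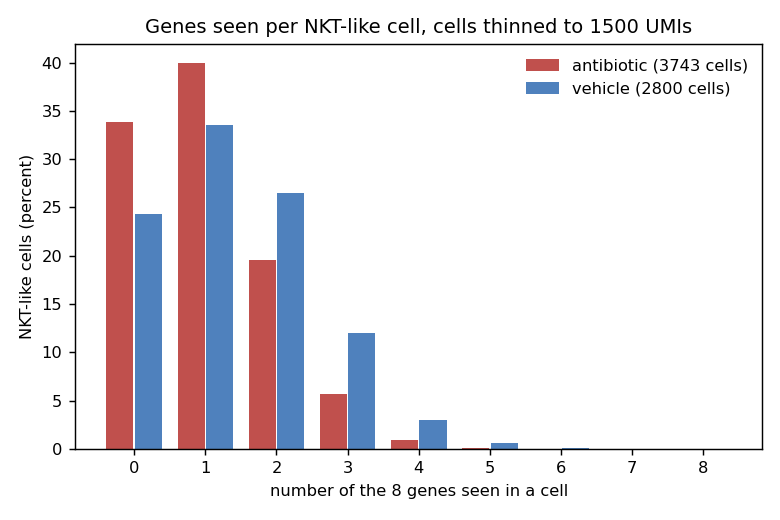
Percent of NKT-like cells (vertical axis) by the number of the 8 genes seen in a cell (horizontal axis), with every cell thinned to 1500 UMIs, antibiotic bars in red to the left of vehicle bars in blue. The antibiotic bars are the higher at 0 and 1 gene, and the vehicle bars are the higher from 2 to 6 genes.

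Pairs of the genes seen in the same cell were set against the number that their shares predict. Of 28 pairs, 17 in the antibiotic and 24 in the vehicle library were seen together more often than predicted. The median of observed over expected was 1.07 in the antibiotic and 1.12 in the vehicle library. The interval lay above 1 for 2 pairs in the antibiotic and 6 pairs in the vehicle library. It lay below 1 for 1 antibiotic and 0 vehicle pairs. The share among pairs of other genes was not computed, so nothing is read from these counts. *Mmp9* with *Asb2* had an interval above 1 in both libraries, at 1.47 (1.10 to 1.92) in antibiotic and 1.28 (1.06 to 1.54) in vehicle NKT-like cells. *F2rl2* with *1810011H11Rik* had the highest value among vehicle cells, 1.72 (1.14 to 2.48), on 28 cells, and 0.565 (0.154 to 1.45), on 4 cells, among antibiotic cells. *Dtx1* with *Chst2* was seen in 1 antibiotic cell, 0.169 of the expected number (0.00429 to 0.944).

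Cells that held at least 3 of the genes differed in other genes from cells that held none, at the same thinned depth. Of 24 genes compared in this way, the 3 given here were chosen after their values were seen. *Cd8a* was seen in 0 of 250 antibiotic cells with at least 3, or 0% (0 to 1.46), and in 2.61% of antibiotic cells with none. It was seen in 0.913% (0.249 to 2.32) of vehicle cells with at least 3 and 11.5% (9.16 to 14.1) with none. *Tbx21*, which encodes the transcription factor T-bet, was seen in 12.8% of antibiotic cells with at least 3 and 11.7% with none, and in 19.9% (16.2 to 23.9) and 9.54% (7.4 to 12) of vehicle cells. *Xcl1*, which encodes a chemokine that attracts cross-presenting dendritic cells, was seen in 30.4% (24.8 to 36.5) of antibiotic cells with at least 3 and 21.3% (19.1 to 23.7) with none, and in 47.0% (42.3 to 51.8) and 34.2% (30.7 to 37.9) of vehicle cells. Across both libraries the *Xcl1* shares ran in the same direction, and those of *Tbx21* had overlapping intervals in the antibiotic library.

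The genes of the pathways around the members did not share one direction. Of 50 Notch pathway genes, 41 were tested in NKT-like cells. Of these, 10 had an interval below 1 and 11 an interval above 1, beside 22.7% and 15.1% of all genes, with a median log2 ratio of 0.15. *Rbpj*, the DNA-binding partner of Notch, had 29.6 CPM in antibiotic and 40.2 CPM in vehicle NKT-like cells, a ratio of 0.735 (0.646 to 0.837). *Hes1*, another target, had 16 UMIs in antibiotic and 29 UMIs in vehicle NKT-like cells, a ratio of 0.485 (0.246 to 0.923). *Hdac1*, at 0.836 (0.778 to 0.898), and *Tcf7*, at 0.754 (0.678 to 0.839), were also lower. So were *Psen2*, at 0.868 (0.784 to 0.960), and *Aph1a*, at 0.888 (0.819 to 0.963). Other genes of the list ran the other way. These included *Gata3*, at 1.21 (1.13 to 1.31), *Myc*, at 1.45 (1.28 to 1.66), *Il2ra*, at 1.31 (1.14 to 1.51), and *Hes6*, at 1.18 (1.06 to 1.31). The glycosyltransferase gene *Lfng*, whose product modifies Notch receptors, was higher in antibiotic cells, with 242 CPM against 203 CPM in vehicle cells, a ratio of 1.19 (1.13 to 1.26). Without *Asb2* and *Dtx1* the list held 8 genes with an interval below 1 and 11 above it.

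Among the other families, no tested gene but the member had an interval below 1 in the *Asb* genes and the metalloproteinases. In each of the other 5 at least 1 gene that is not a member did, while *Rcbtb2* itself did not. Over all genes tested in this class the interval lay below 1 for 22.7% and above 1 for 15.1%, and the lists are short. Of 8 *Asb* genes tested, *Asb2* had an interval below 1 and *Asb7* one above it, at 1.37 (1.01 to 1.87). All 5 Deltex family genes were tested, and *Dtx1* and *Dtx3l*, at 0.816 (0.722 to 0.923), were lower, while *Dtx3*, at 1.24 (1.11 to 1.39), and *Dtx4*, at 1.55 (1.25 to 1.93), were higher in antibiotic cells. Of 24 genes of matrix metalloproteinases and their inhibitors 4 were tested, and *Mmp9* had the only interval below 1. Among the protease-activated receptors and their partners, 5 of 8 genes were tested, and *F2r*, the thrombin receptor PAR1, had 95.3 CPM in antibiotic and 106 CPM in vehicle NKT-like cells, a ratio of 0.904 (0.838 to 0.974). Among 4 tested genes of creatine metabolism, *Gamt* (10 antibiotic and 20 vehicle UMIs) and *Gatm* (1 antibiotic and 18 vehicle UMIs), enzymes of creatine synthesis, had an interval below 1 beside *Ckb*. The liver itself makes creatine, and hepatocyte markers summed to 3.75 CPM in antibiotic and 20.2 CPM in vehicle NKT-like cells, and their part in the *Gamt* and *Gatm* counts was not tested.

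Of 13 tested genes of sulfotransferases and selectin ligands, 4 had an interval below 1 and none had one above it, beside 22.7% and 15.1% of all genes. Beside *Chst2* these were *Chst12*, at 0.852 (0.733 to 0.990), *St3gal4*, at 0.831 (0.723 to 0.955), and *Selplg*, which encodes the selectin ligand PSGL-1, at 0.828 (0.80 to 0.857). In the small *Rcbtb* and *Rcc* family, all 4 genes were tested, with *Rcc1* at 0.628 (0.474 to 0.829) and *Rcc2* at 1.14 (1.02 to 1.28).

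Over 8 values, the 4 classes of both libraries, *Mmp9* followed the mean of the other members most closely, with Pearson r of 0.985, and *Chst2* least, with 0.734. Among 2428 other genes with at least 50 CPM in vehicle NKT-like cells, those with the highest r to the mean of the 8 were *Pttg1* (0.985), *Psmb8* (0.976), *Abcb9* (0.971), *Tnfsf14* (0.969), *Ier3ip1* (0.969), *Hspbp1* (0.966), *Gimap7* (0.964), *Ndufv3* (0.963), *F2r* (0.963) and *Pde3b* (0.961). The 8 points share 2 libraries, so these values describe the profiles and carry no test. *Tnfsf14*, which encodes the cytokine LIGHT, had 85.3 CPM in antibiotic and 88.9 CPM in vehicle NKT-like cells and 40 CPM in antibiotic and 19.6 CPM in vehicle other T cells, so that, as for *Rcbtb2*, the libraries differed more in other T cells. *Abcb9* had 95 CPM in antibiotic and 129 CPM in vehicle NKT-like cells and 60.2 CPM in antibiotic and 39.8 CPM in vehicle other T cells.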

How the data were processed

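Single-cell libraries of CD45+ liver leukocytes, 1 from antibiotic-treated and 1 from vehicle-treated mice, were analyzed. The deposited UMI counts are whole numbers for every barcode, which the authors made with bcl2fastq and Cell Ranger on mm10 per the labels; versions are not given in the sources used here. Of 28692 gene identifiers 99.0% matched GENCODE vM21, and the libraries held 29811401 (antibiotic) and 41474311 (vehicle) UMIs. Cells, classes, CPM and intervals were as stated in the report, with exact Poisson intervals for CPM, exact conditional intervals for ratios and Clopper-Pearson intervals for shares, in Python 3.11.15 with numpy 2.4.6 and scipy 1.17.1. UMIs are molecules, so intervals cover counting error only. Median log2 ratios had 0.5 added to each count. Scrublet in scanpy 1.11.5 scored 2.00% of antibiotic and 4.44% of vehicle cells as doublets, which were kept. Interval code was tested on simulated data. The members and gene lists were chosen with earlier results of these data known, and a gene of the sulfotransferase list, with a split of other T cells that used it, is not reported here. Named genes are the members, up to 5 genes per list with an interval beyond 1 by summed UMIs, and the 10 genes most alike. Named outside that rule, after their values were seen, were *Rbpj*, *Hes1*, *Hes6*, *Myc*, *Il2ra*, *Tcf7*, *Psen2*, *Aph1a* and genes given as markers or by members per cell. Profiles used log2 of CPM plus 10.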

Additional observations from a re-analysis of the deposited data

Results flagged for a closer look

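*Ckb*, *Mmp9* and *1810011H11Rik* had opposite directions in 2 cell classes, with intervals on either side of 1. In other T cells the ratio of antibiotic over vehicle CPM was 1.93 for *Ckb*, 1.83 for *Mmp9* and 2.08 for *1810011H11Rik*, while in NKT-like cells it was 0.648, 0.573 and 0.584. When other T cells were split by a UMI of *Zbtb16*, *Klrb1c* or *Trav11*, seen in 42.3% of antibiotic and 17.4% of vehicle cells, the intervals of *Mmp9* and *1810011H11Rik* took in 1 in both parts. *Mmp9* had 1.19 (0.743 to 1.93) in cells with such a UMI and 1.00 (0.438 to 2.15) in cells without, and *1810011H11Rik* had 1.14 (0.569 to 2.37) and 1.75 (0.540 to 5.52). *Ckb* had 1.37 (1.04 to 1.81) in cells with such a UMI and 1.33 (0.938 to 1.86) in cells without. The difference between the classes was not tested, since each class has 1 library per condition.

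*Rcbtb2* gave a signal in barcodes of 1 to 50 UMIs, which enter the comparisons between cells only where free RNA was subtracted. Its CPM there was 1.24 times as high in the antibiotic as in the vehicle library (1.09 to 1.40), but 0.881 times (0.688 to 1.12) in barcodes of 50 to 500 UMIs, while in NKT-like cells the interval of its ratio took in 1.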

How the results depend on the processing

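No paired analysis was possible because each condition has 1 library, and for the same reason no replicate could be left out. No result in the 4 classes changed direction among those called. For the counts of genes under the alternatives below, the share of all genes was not computed. Those counts are a description only. In NKT-like cells the number of genes at or under 1/2 was 1, and became 2 with each cell weighted alike, with stricter gates or without cells that held UMIs of other lineages, 0 with totals without ribosomal and mitochondrial genes, 3 in *Trav11* cells and 6 at a fold of 1.5. The summed ratio, 0.688, was 0.762 with those totals, 0.666 with stricter gates, 0.671 without cells of other lineages, 0.639 in *Trav11* cells and 0.663 without *Cd8a* cells. In B cells the number at or under 1/2 was 0 with 2500 UMIs per cell, with free RNA subtracted or with at least 50 UMIs per gene, and 2 at a fold of 1.5 or with no filter; 1 interval lay below 1 with median scaling or without doublets, and the summed ratio was 1.31 at 2500 UMIs. In NK cells 2 intervals lay below 1 with 2500 UMIs, stricter gates or no *Trac* UMI, the number at or under 1/2 was 4 at a fold of 1.5 and 1 with 50 UMIs per gene, and the summed ratio was 0.0144 with free RNA subtracted, where *Cd79a* put free RNA at 73.4% of antibiotic and 54.0% of vehicle UMIs in cells that partly also passed the B cell gate. In other T cells the summed ratio was 1.86 with thinning, 2.16 with free RNA subtracted and 1.14 without *Zbtb16*, *Klrb1c* or *Trav11*. Where no construction is named, the cause was not tested. Subtraction by *Cd79a* could not be run in NKT-like cells, whose gate sets it to 0, so *Cd79b* was used, and median log2 ratios after subtraction could not be given in B, NK or other T cells, where a gene reached 0. Subsets by *Trav11*, *Cd8a*, *Trac* and *Zbtb16*, *Cd79b*, cells of more than 1 class and shared barcodes were alternatives chosen after seeing the data. In B and NK cells, with 337 and 93 antibiotic UMIs of the 8 genes, depth limits what could be seen.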
